A study of Mus musculus with 6 samples.

Results

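Cathepsins and legumain are the proteases that digest protein in endosomes and lysosomes. The 10 genes described here were taken as every probe set of the array table whose platform gene symbol was Ctsa, Ctsb, Ctsc, Ctsd, Ctsh, Ctsk, Ctsl, Ctss, Ctsz or Lgmn, which gave 21 of 45037 probe sets and 10 of 18193 named genes. The samples were total RNA of whole aorta from 32-week-old mice, 3 arrays from C57BL/6J wild type mice and 3 from apoE-/- mice on the C57BL/6J background, which lack apolipoprotein E in every cell and are known for high plasma cholesterol and plaques. The labels do not give sex, diet, or whether an array holds 1 animal, a pool or a repeat preparation. The p-values therefore reflect the spread between these arrays alone, which may be technical. Intensities are in scaled units on a linear axis, with 1 probe set per gene (the brightest) standing for the gene unless another is named.

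Most members are cysteine proteases of the papain family, made as inactive precursors, carried to the lysosome by mannose 6-phosphate receptors and activated there by cleavage at acid pH. Ctsd is an aspartic protease, Ctsa a serine carboxypeptidase that also protects neuraminidase and beta-galactosidase in the lysosome, and legumain (Lgmn) a cysteine protease of another family that cuts after asparagine and matures several cathepsins. In the vessel wall these enzymes are known from macrophages, where they degrade lipoprotein, process antigen and, when secreted, cut elastin and collagen. Cystatins and stefins inhibit the papain family members.

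All 10 genes were higher in apoE-/- aorta on every array than on any wild-type array, and 6 of them passed the test (limma, Benjamini-Hochberg adjusted p under 0.05 over 13031 genes), namely Ctss, Lgmn, Ctsk, Ctsc, Ctsl and Ctsd. None fell. Over all genes tested 3.15% were called higher, 0.483% were called lower and 10.9% had all apoE-/- arrays above all wild-type arrays. Changes ran from 0.38 for Ctsb to 2.49 for Ctss on the log2 scale, with a median of 0.69 over the 10 genes against -0.05 over all genes. On that scale, log2(intensity + 16), the rise of Ctss ranked 36 among the 13031 genes. All 10 genes passed the filter on low intensity, and each gene's probe set was brighter than at least 90.95% of all probe sets, and the wild-type arrays alone read at least 834 units for each, against array medians of 178 to 195.5 units. The cells behind these levels were not separated, and in bulk tissue more cells of a type and more RNA per cell cannot be told apart.

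Ctss, the cathepsin that trims the invariant chain of MHC class II and stays active at neutral pH, read 2012, 1855 and 1937 units on wild-type replicates 1 to 3 and 12861, 8763 and 11554 units on apoE-/- replicates 1 to 3. The lowest apoE-/- array was thus far above the highest wild-type array, and the wild-type arrays lay close together. The means were 1934 ± 78.5 and 11060 ± 2093 units (SD, n = 3), and the log2 change was 2.49 ± 0.14 (SE, adjusted p = 1.11e-04). It passed the test whichever single array was left out and under each other setting tried, with log2 changes from 2.37 to 2.65.

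Ctsk, a strong collagenase and elastase best known from osteoclasts, read 979, 834 and 967 units in wild type and 2585, 1467 and 3499 units in apoE-/- aorta. The groups did not overlap, but the apoE-/- arrays were more than 2-fold apart. The means were 927 ± 80.7 and 2517 ± 1018 units (SD, n = 3), and the log2 change was 1.34 ± 0.27 (SE, adjusted p = 0.0315). The call of Ctsk ended when any one array other than apoE-/- replicate 2 was left out (adjusted p from 0.0793 to 0.133), while its log2 change stayed between 1.06 and 1.68.

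Ctsk and Ctss are neighbours on chromosome 3, with 0 protein-coding genes between them in the RefSeq gene table of GRCm38.p6. The nearest tested genes on either side, named for their position, had log2 changes of 0.06 ± 0.13 for Arnt, a transcription factor before Ctsk, and 0.02 ± 0.12 for Golph3l, after Ctss (SE, adjusted p = 0.837 and 0.945), with Hormad1 between Ctss and Golph3l not tested. The 250 bases before the start of each of the 2 rising genes are shown because they rose side by side (RefSeq, GRCm38.p6, both on the plus strand, Ctsk at chr3:95498960-95499209 and Ctss at chr3:95526536-95526785). Capitals mark GAGGAA or its reverse complement TTCCTC, letters found in many sites of PU.1 (Spi1), an ETS-family factor of macrophages.
Ctsk: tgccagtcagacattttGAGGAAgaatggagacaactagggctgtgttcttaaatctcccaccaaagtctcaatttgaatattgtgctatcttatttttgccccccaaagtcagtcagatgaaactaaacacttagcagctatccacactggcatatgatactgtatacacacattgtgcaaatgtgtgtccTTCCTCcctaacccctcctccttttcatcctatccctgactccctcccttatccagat
Ctss: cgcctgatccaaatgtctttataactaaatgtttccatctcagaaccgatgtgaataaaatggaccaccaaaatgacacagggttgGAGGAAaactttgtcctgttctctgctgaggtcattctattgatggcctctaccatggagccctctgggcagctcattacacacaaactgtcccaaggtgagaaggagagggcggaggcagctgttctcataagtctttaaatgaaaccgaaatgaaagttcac
Ctsk had matches beginning 233 and 58 bases before the start. Ctss had one 164 bases before it and another at the start itself, beyond the printed stretch. The window searched ran from 250 bases before to 50 after each start, both strands, and 28.3% of the 32851 windows in the table held these letters. Of the 8 members with windows, Ctsc was the other one with a match, and Ctsb and Ctsh had no entry. The motif TGANTCA, the pattern of AP-1, was in 0 of the 10 windows of the 8 members and in 7.81% of all windows.

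Ctsl, an endopeptidase with broad activity, read 7419.5, 7147 and 6424 units in wild type and 13502, 10246 and 11077 units in apoE-/- aorta. The means were 6997 ± 514 and 11608 ± 1691 units (SD, n = 3), and the log2 change was 0.72 ± 0.12 (SE, adjusted p = 0.0138). Every apoE-/- array was above every wild-type array. Without wild-type replicate 3, the lowest of its group, the adjusted p was 0.0698. A dimmer probe set of Ctsl (1457724_at) went from 169 ± 19.1 to 574 ± 236 units, a larger log2 change of 1.60 ± 0.25 (adjusted p = 0.0114 over 27023 probe sets). Its wild-type mean, though, lay under every array's median and is not shown to be above background.

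Ctsb, an endopeptidase abundant in most tissues, gave different sizes of change on its 5 probe sets. The brightest (1417490_at) read 8712, 11433 and 9481 units in wild type and 14756.5, 11526 and 12207 units in apoE-/- aorta, so that only a narrow gap separated the groups. Its log2 change was 0.38 ± 0.13 (SE, adjusted p = 0.177), with a 95% interval from 0.08 to 0.68. A second bright probe set (1448732_at) had 0.47 ± 0.12 (adjusted p = 0.0923 over probe sets). The other 2 kept probe sets were called, 1417491_at with means of 1876 ± 105 and 3618 ± 888 units (SD, n = 3) and a log2 change of 0.91 ± 0.17, and 1417492_at with 1868 ± 168 and 4273 ± 1061 units and 1.16 ± 0.17 (adjusted p = 0.0245 and 0.00899). The fifth (1444987_at) was dim, at 57.6 ± 13.1 and 234.5 ± 48.2 units, and fell under the filter. The 2 bright probe sets were brighter than 99.7% of all probe sets, and the 2 called ones than 94.8% and 95.5%. Whether the brightness of a probe set plays a part in the size of its change was not tested.

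The exopeptidases Ctsc, Ctsh and Ctsz trim peptides from their ends. Ctsc, also called dipeptidyl peptidase 1, which activates serine proteases of leukocyte granules, read 3105, 2957 and 2981 units in wild type and 5801, 4623.5 and 5997 units in apoE-/- aorta. It had means of 3014 ± 79.6 and 5474 ± 743 units (SD, n = 3) and a log2 change of 0.85 ± 0.11 (SE, adjusted p = 0.00516), and stayed called whichever single array was left out. The other probe sets of Ctsc were dimmer and not called, with log2 changes of 0.71 ± 0.20 and 0.27 ± 0.19 (adjusted p = 0.128 and 0.533 over probe sets). With the median of its probe sets in place of the brightest, Ctsc was not called (0.71, adjusted p = 0.112).

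Ctsz, a carboxypeptidase, read 5343, 5265 and 4366 units in wild type and 8569, 6117 and 8165.5 units in apoE-/- aorta. This was a log2 change of 0.60 ± 0.14 (SE, adjusted p = 0.0600, 95% interval 0.28 to 0.92). Its other 2 probe sets were called, with 0.99 ± 0.20 and 1.09 ± 0.19 (adjusted p = 0.0321 and 0.0179 over probe sets). Ctsh, an aminopeptidase, read 4837, 4361 and 3823 units in wild type and 6355, 4916.5 and 6397 units in apoE-/- aorta. Its log2 change was 0.44 ± 0.13 (adjusted p = 0.127, 95% interval 0.14 to 0.73). The second probe set of Ctsh had 0.62 ± 0.13 and was called (adjusted p = 0.0435 over probe sets). For both genes the lowest apoE-/- array, replicate 2, came close to the highest wild-type array.

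Lgmn, legumain, read 2241, 1717 and 1850.4 units in wild type and 6426, 4674 and 8016 units in apoE-/- aorta. The lowest apoE-/- array was about 2-fold above the highest wild-type array. The means were 1936 ± 272 and 6372 ± 1672 units (SD, n = 3), and the log2 change was 1.69 ± 0.19 (SE, adjusted p = 0.00265). Lgmn was called whichever single array was left out and under every other setting tried. Its 95% interval, 1.26 to 2.11, did not reach that of Ctss, 2.18 to 2.80, and overlapped that of Ctsk, 0.74 to 1.95. Each interval is of 1 gene alone, and the differences between these genes, read on the same arrays, were not tested.

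Ctsd, the main aspartic protease of lysosomes, read 6988, 8271 and 6871 units in wild type and 12696, 9892 and 11727 units in apoE-/- aorta. The means were 7377 ± 777 and 11438 ± 1424 units (SD, n = 3), and the log2 change was 0.63 ± 0.12 (SE, adjusted p = 0.0262). The groups did not overlap, yet the call ended without wild-type replicate 1 or 3 or apoE-/- replicate 1 or 3 (adjusted p from 0.0863 to 0.110). Ctsa, the serine carboxypeptidase, read 2469, 2400.2 and 2397 units in wild type and 4463, 2879 and 4412 units in apoE-/- aorta. Its log2 change was 0.66 ± 0.16 (adjusted p = 0.0638, 95% interval 0.30 to 1.03), and it was called only when apoE-/- replicate 2 was left out (0.87, adjusted p = 0.00168) or when arrays were weighted (0.69, adjusted p = 0.0338). A dim second probe set of Ctsa had overlapping groups, at 241 ± 44.8 and 270 ± 11.1 units.

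The sequences before Ctsd, Ctsa and Lgmn are shown because they hold CACGTG, the E-box at the core of sites of TFEB and related factors that control lysosomal genes (RefSeq, GRCm38.p6, 250 bases before a start). They lie at chr7:142387828-142388077 on the minus strand (Ctsd), chr2:164833523-164833772 on the plus strand (Ctsa, the second of its 2 windows) and chr12:102439093-102439342 on the minus strand (Lgmn, one of 2 windows). Capitals mark CACGTG, with the T before it or the A after it where the longer TCACGTG or its reverse complement CACGTGA is present.
Ctsd: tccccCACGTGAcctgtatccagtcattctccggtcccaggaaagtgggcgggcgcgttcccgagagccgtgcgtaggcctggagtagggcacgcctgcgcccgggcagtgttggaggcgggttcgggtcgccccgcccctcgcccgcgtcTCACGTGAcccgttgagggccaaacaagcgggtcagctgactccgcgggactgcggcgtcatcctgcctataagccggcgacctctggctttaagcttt
Ctsa: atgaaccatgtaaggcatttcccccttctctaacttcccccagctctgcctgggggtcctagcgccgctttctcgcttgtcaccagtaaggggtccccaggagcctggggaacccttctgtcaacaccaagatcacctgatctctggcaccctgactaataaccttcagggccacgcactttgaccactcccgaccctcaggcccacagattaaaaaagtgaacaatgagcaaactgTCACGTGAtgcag
Lgmn: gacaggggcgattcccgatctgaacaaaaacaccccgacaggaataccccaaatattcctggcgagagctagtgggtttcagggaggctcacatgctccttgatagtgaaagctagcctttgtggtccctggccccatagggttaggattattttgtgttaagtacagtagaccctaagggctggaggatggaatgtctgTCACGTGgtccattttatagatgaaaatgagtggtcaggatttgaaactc
Ctsd had CACGTG 245 and 98 bases before its start, Lgmn 49 bases before, and Ctsa 12 bases before and again 6 bases after it. Ctsl had the shorter motif 236 bases before its start, without the flanking bases. CACGTG was in 7.15% of all 32851 windows and TCACGTG, which contains it, in 3.77%. Among the 10 windows of the 8 members they were in 4 and 3, each of a different gene. The window of Ctsa and that of Lgmn that are not shown held no CACGTG. The Ctss, Ctsk, Ctsc and Ctsz windows held no CACGTG. A match is a description of the letters and not evidence of binding.

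Taking all probe sets, 20 of the 21 passed the filter and 12 of these were called higher, against 2.44% of the 27023 probe sets tested. None was called lower, all 21 had a positive log2 change, and 18 of the 20 kept ones had apoE-/- arrays all above the wild-type arrays, against 10.5% of kept probe sets. With the dim Ctsb probe set it was 19 of 21, against 8.48% of probe sets before the filter. Of the 10 genes, 9 had at least 1 called probe set, all but Ctsa. As 6 of the 10 had several probe sets, they had more than 1 opportunity for a call. The share of all genes with at least 1 called probe set was not computed, so this count has no background. The count of 12 became 5 when apoE-/- replicate 1 or wild-type replicate 3 was left out, 6 on leaving out apoE-/- replicate 3, and 7 on leaving out wild-type replicate 1. Of 10 comparisons between a kept probe set and the brightest one of its gene, 7 had per-array log2 ratios that did not overlap between genotypes (exact permutation p = 0.1, the smallest that 3 against 3 arrays can give, adjusted p = 0.143). The largest of these differences in log2 change was 0.88, between the Ctsl probe sets.

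**Figure D1:**
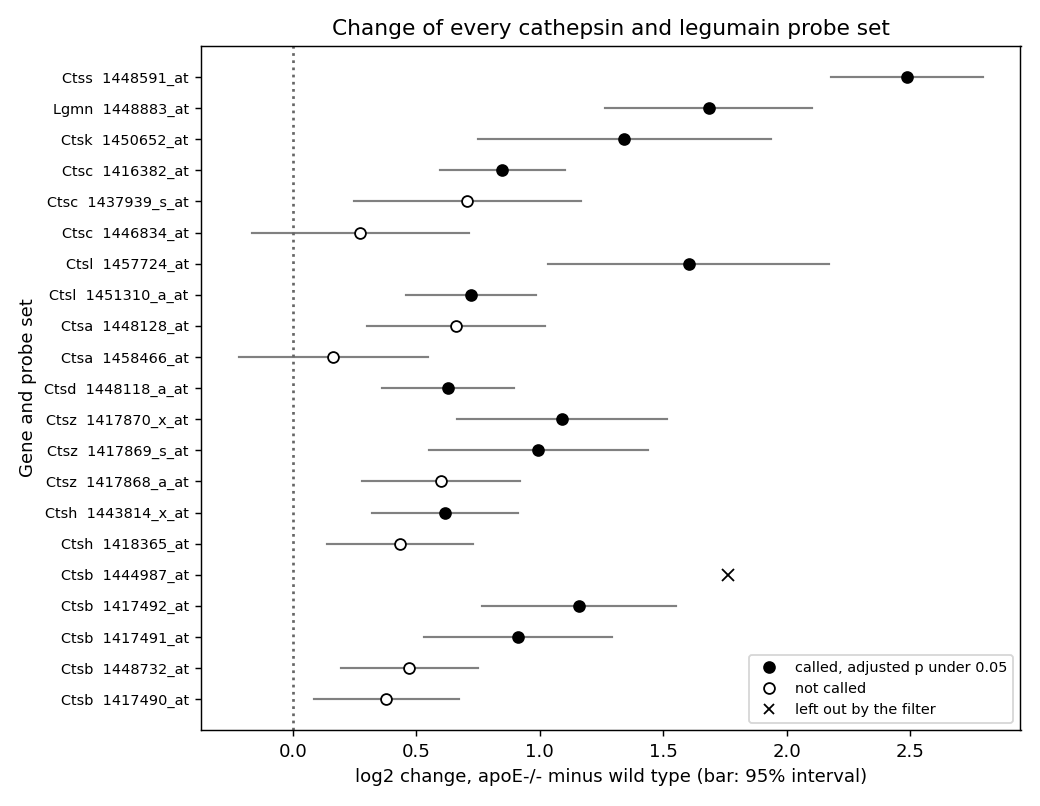
The log2 change (apoE-/- minus wild type) of each of the 21 probe sets, ordered by gene, with a 95% interval for the 20 that passed the filter. Filled points passed the test, open points did not, and the cross is the dim Ctsb probe set left out by the filter. All points lie above 0, and the brightest probe set has the smallest change within Ctsb, Ctsh, Ctsl and Ctsz and the largest within Ctsa and Ctsc.

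The arrays did not contribute alike. The apoE-/- replicate 2 array had the lowest of the 3 apoE-/- values in all 10 genes, whereas over all genes it was the lowest in 32.5%. Against the wild-type mean, the median of the 10 genes on that array was 0.49 on the log2 scale, and 0.91 and 0.79 on apoE-/- replicates 1 and 3. Without it, 9 of the 10 genes were called, all but Ctsb. Without wild-type replicate 3 only 3 were called, Ctss, Lgmn and Ctsc. Leaving out replicate 1 of either genotype, or the third apoE-/- array, left 4 called genes.

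Markers of macrophages moved with these genes in the same arrays. Of 18 listed markers, 14 rose, against 3.15% of all genes, and none fell. Their median log2 change was 1.55, and their summed intensity was 21617 to 23716 units in wild type and 45358 to 69966 units in apoE-/- aorta. In 16 of the 18 all apoE-/- arrays lay above all wild-type arrays, against 10.9% of all genes. The list is not confined to macrophages, since it holds genes of leukocytes such as Laptm5. None of the 18 read 0. The largest rises were those of Mpeg1, a pore-forming protein of macrophages (2.91 ± 0.24, SE), Cd68, a lysosomal glycoprotein (2.87 ± 0.25), the adaptor Tyrobp (2.38 ± 0.23) and the integrin chain Itgb2 (2.35 ± 0.295), with adjusted p between 8.37e-04 and 0.00460. Named after their values were seen, Cd163 and Lyve1, markers of resident macrophages, had log2 changes of 0.02 ± 0.16 and 0.01 ± 0.18, whereas Mrc1, another marker of resident macrophages, read 1946 ± 159 units in wild type and 3199 ± 502 units in apoE-/- aorta (SD, n = 3) and was called higher (0.70 ± 0.13, adjusted p = 0.0224). The mean of the 18 markers against wild type was 1.52, 1.08 and 1.74 on apoE-/- replicates 1 to 3, lowest on replicate 2 as for the cathepsins. The part of macrophage number in the cathepsin values was not tested.

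Set against the mean of these markers within each array, the 10 genes changed by unequal amounts. The ratio of Ctss to the marker mean was higher in apoE-/- aorta by 1.04 on the log2 scale and that of Lgmn by 0.24, each without overlap. For Lgmn the gap was narrow, from 1.38 on the highest wild-type array to 1.41 on the lowest apoE-/- array. The marker mean changed by 1.45, while single markers ran from 0.01 (Lyve1) to 2.91 (Mpeg1). The changes of all 10 genes, from 0.38 to 2.49, lay within that range. Ctsk moved about as much as the markers, with a difference of -0.11 and overlapping groups (exact permutation p = 0.7), which turned to 0.05 without apoE-/- replicate 2. By their brightest probe sets, the other 7 genes changed less than the marker mean, again without overlap. The differences ran from -0.60 for Ctsc to -1.07 for Ctsb. Ratios of their other probe sets to the markers were not computed. Some of these changed more, with log2 changes of 1.16 for Ctsb (1417492_at), 1.09 for Ctsz (1417870_x_at) and 0.62 for Ctsh. The dim Ctsl probe set (1457724_at), at 1.60, was above the marker mean. The other probe sets of Ctsa and Ctsc changed less than the brightest. Each of the 9 ratios without overlap had an exact permutation p = 0.1, two-sided, the smallest possible here (0.111 adjusted over the 10 comparisons), so this test could not take them past 0.05 with 3 arrays a group.

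**Figure D2:**
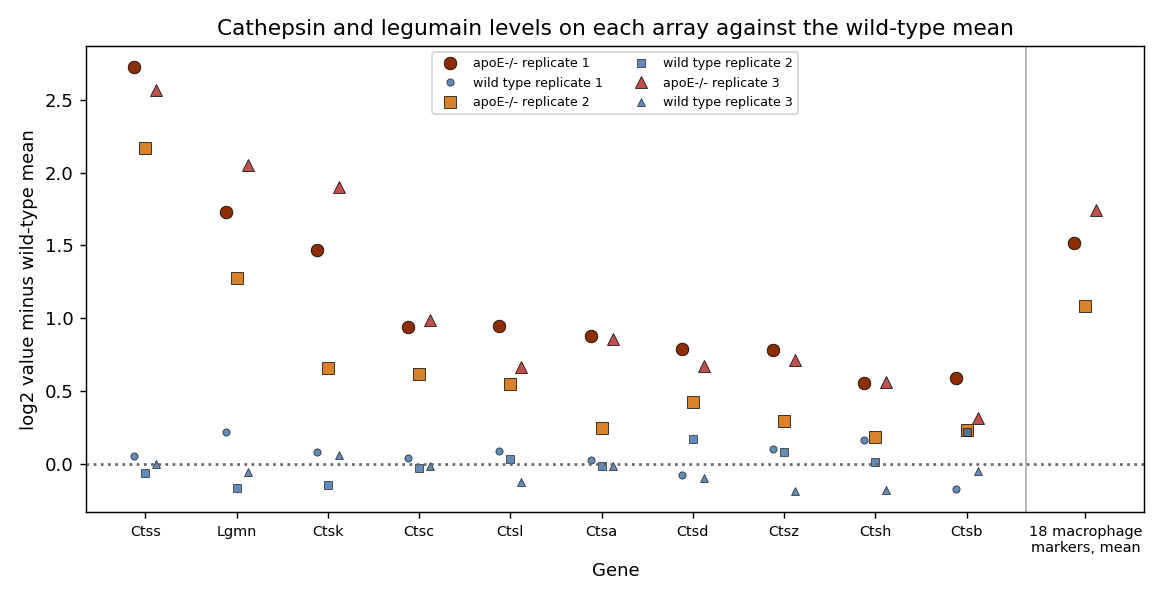
The log2 value of each gene minus its wild-type mean on the 3 apoE-/- arrays (large symbols) and 3 wild-type arrays (small blue symbols), with the mean of 18 macrophage markers at the right. The apoE-/- replicate 2 square is the lowest large symbol in every gene and in the marker mean. Each gene is shown by its brightest probe set. On average over the 3 apoE-/- arrays Ctss and Lgmn lie above the marker mean and the other 8 genes below it, Ctsk by 0.11.

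The genes whose pattern over the 6 arrays was nearest to a member, by the root mean square difference of log2 values centred on the wild-type mean, were found for the 3 members with the largest change. For Ctss they were Laptm5, a lysosomal membrane protein of leukocytes (0.19), Tyrobp (0.23) and the cytokine receptor chain Csf2rb (0.23). For Lgmn they were the lysosomal glucuronidase Gusb (0.07), the inhibitory receptor Sirpa (0.09) and the hexokinase Hk3 (0.10). For Ctsk they were the myeloid receptor Cd300lf (0.11), the NADPH oxidase subunit Ncf4 (0.12) and the lysosomal galactosidase Gla (0.12). This is a description over 6 arrays, and all these genes share the genotype difference.

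None of the remaining cathepsins passed the test. Of 13 further family members listed, 10 were under the intensity filter, among them the placental cathepsins and Ctsg and Ctsw of leukocytes, and none of the 3 tested was called by limma (1 at an unadjusted p under 0.05). That one was Ctso, at 2131 ± 51.6 and 2496 ± 133 units (SD, n = 3), and the log2 change was 0.23 ± 0.08 (SE, adjusted p = 0.202). All apoE-/- arrays of Ctso lay above all its wild-type arrays. Ctsf and Ctse, named after their values were seen, had log2 changes of -0.08 ± 0.20 and -0.08 ± 0.16 with overlapping groups. Whether these 3 differ in change from the 10 members was not tested.

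Among 8 tested genes of a list of other, mostly lysosomal, peptidases, 1 rose. This was the dipeptidyl peptidase Dpp7, at 677 ± 48.7 units in wild type and 1082 ± 196 units in apoE-/- aorta (SD, n = 3), and its log2 change was 0.65 ± 0.15 (SE, adjusted p = 0.0498). The list held no called gene when any one array other than apoE-/- replicate 2 was left out, nor under 8 of the 10 other settings tried. Its median log2 change was 0.18. The tripeptidyl peptidase Tpp1 and the carboxypeptidase Scpep1, named after their values were seen, had 0.29 ± 0.11 and 0.06 ± 0.08 (adjusted p = 0.199 and 0.718). Napsa, the aspartic protease napsin A, likewise named, was dim at 84.6 ± 71.0 and 281.8 ± 67.3 units (SD, n = 3), with groups that did not overlap and no call (adjusted p = 0.122).

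Of the inhibitors, 6 of 19 listed genes could be tested and 1 rose. In 2 of the 6 all apoE-/- arrays lay above all wild-type arrays, against 10.9% of all genes. Cstb, or stefin B, the intracellular inhibitor of cysteine cathepsins, read 6205, 6397 and 5883 units in wild type and 9268, 7970.4 and 9343.5 units in apoE-/- aorta. The groups were well apart, with a log2 change of 0.52 ± 0.09 (SE, adjusted p = 0.0213). The inhibitor list held no called gene without wild-type replicate 1 or 3, or without apoE-/- replicate 1 or 3. Cst3, or cystatin C, the main secreted inhibitor, named after its value was seen, read 13041 ± 1031 units in wild type and 13254 ± 1640 units in apoE-/- aorta (SD, n = 3), a log2 change of 0.02 with a 95% interval from -0.23 to 0.27. No test was made of whether the changes of Cstb and Cst3 differ.

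Of 16 genes that sort, accompany or activate lysosomal enzymes, 1 was called, and their median log2 change was 0.20. In 9 of the 16 all apoE-/- arrays lay above all wild-type arrays, against 10.9% of all genes. An unadjusted limma p under 0.05 was also reached by 9 of the 16. The called gene was Psap, prosaposin, the precursor of lipid hydrolase cofactors, from 8654 ± 304 to 12991 ± 1617 units (SD, n = 3, log2 change 0.58 ± 0.10, SE, adjusted p = 0.0218). The list held no called gene without wild-type replicate 1 or 3 or apoE-/- replicate 3, and 3 without apoE-/- replicate 2. The following were named after their values were seen. The mannose 6-phosphate receptors M6pr and Igf2r had log2 changes of 0.20 ± 0.08 and -0.02 ± 0.12, and Gnptab, a subunit of the enzyme that makes the tag, 0.52 ± 0.145 (adjusted p = 0.242, 0.946 and 0.102). Neu1 and Glb1, the enzymes that Ctsa protects, had 0.48 ± 0.13 and 0.45 ± 0.11 (adjusted p = 0.1001 and 0.0754), each with apoE-/- arrays all above wild-type arrays.

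Of 10 tested regulators linked to these genes, 3 rose and none fell. They were Irf8, an interferon regulatory factor of myeloid cells, from 257 ± 24.3 to 746 ± 250 units (SD, n = 3, log2 change 1.43 ± 0.23, SE), Spi1 (PU.1) from 307 ± 31.0 to 717 ± 231 units (1.14 ± 0.21), and Creg1, a glycoprotein of the endosomal system (0.97 ± 0.21), with adjusted p between 0.0128 and 0.0413. When 1 array was left out, the called regulators numbered 0 for wild-type replicate 3 or apoE-/- replicate 1, 1 for wild-type replicate 1 and 4 for apoE-/- replicate 2. In 5 of the 10 regulators all apoE-/- arrays lay above all wild-type arrays, against 10.9% of all genes. Of the lysosomal regulators named after their values were seen, Tfeb had a log2 change of 0.21 ± 0.12, Tfe3 0.00 ± 0.10 and Mitf 0.15 ± 0.12 (adjusted p = 0.372, 0.989 and 0.573). Nfatc1, the factor of osteoclasts, had 0.20 ± 0.11 (adjusted p = 0.395), also named after its value was seen.

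Among 14 tested genes for substrates or partners, 4 rose and 10 were not called. In 6 of the 14 all apoE-/- arrays lay above all wild-type arrays, against 10.9% of all genes. The invariant chain Cd74, which Ctss trims, read 2677 ± 281 units in wild type and 7363 ± 1663 units in apoE-/- aorta (SD, n = 3), with a log2 change of 1.43 ± 0.17 (SE). Chains of the MHC class II molecules rose beside it, H2-Eb1 by 1.33 ± 0.15, H2-Ab1 by 1.13 ± 0.12 and H2-Aa by 0.98 ± 0.15, and the 4 adjusted p-values lay between 0.00190 and 0.00956. H2-DMa, which loads peptide onto class II, named after its value was seen, had 0.94 ± 0.23 and was not called (adjusted p = 0.0677). The list held 7 called genes without apoE-/- replicate 2. Elastin (Eln), named after its value was seen, read 11857 ± 548 and 11829 ± 1659 units (SD, n = 3) and had a log2 change of -0.01 with a 95% interval from -0.26 to 0.24. The collagen chain Col1a1, likewise, had 0.56 ± 0.13 (adjusted p = 0.0619), and the laminin chain Lama4 -0.44 ± 0.12 (adjusted p = 0.0991).

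Of 5 tested osteoclast markers, listed because Ctsk is known from that cell, 1 rose (2 without wild-type replicate 2). Atp6v0d2, a proton pump subunit, read 118 ± 25.1 units in wild type and 2394 ± 1125 units in apoE-/- aorta (SD, n = 3, adjusted p = 5.77e-04). Its wild-type level lay under the median of every array and is not shown to be above background, so no fold change is given. Calcr, Ocstamp and Dcstamp were under the filter, and the median of the 5 was -0.15. Acp5, tartrate-resistant acid phosphatase, named after its value was seen, had overlapping groups (0.85 ± 0.33, adjusted p = 0.214).

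**Figure D3:**
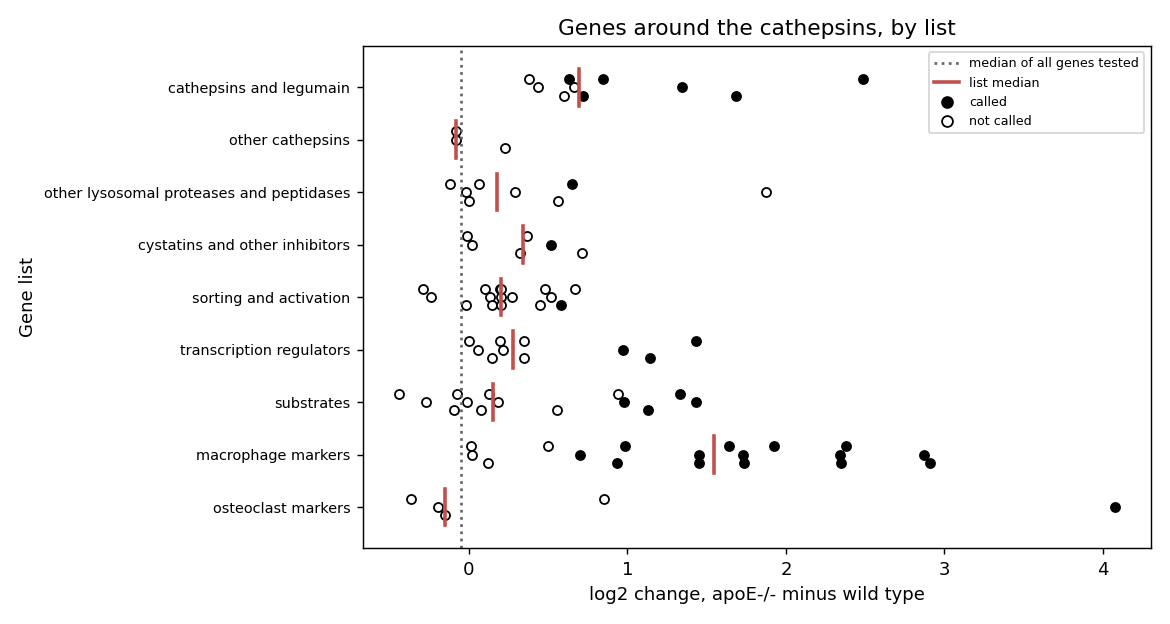
The log2 change (apoE-/- minus wild type) of each tested gene in 9 lists, with filled points for genes that passed the test, red bars for list medians and a dotted line for the median of all genes tested. The cathepsin and legumain median is 0.69 and that of the macrophage markers 1.55, and the medians of the other 7 lists lie between -0.15 and 0.34.

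The arrays were checked as follows. Apoe, the disrupted gene, read between 4309 and 5686 units in wild type and between 56.3 and 462 units in apoE-/- aorta, so all labels fitted it. The control probe sets for beta-actin, whose 3' over 5' signal is a sign of RNA integrity, gave 1.15 to 1.16 in apoE-/- aorta and 1.16 to 1.21 in wild type, and those for Gapdh overlapped (0.705 to 0.816 against 0.736 to 0.775). The aorta's smooth muscle markers were bright and none of 8 was called by limma (2 at an unadjusted p under 0.05, the smallest for Smtn, log2 change -0.33 ± 0.09, adjusted p = 0.0858). Fibroblast markers held 2 called genes of 8, Lum (1.02 ± 0.14) and Efemp1 (0.59 ± 0.12), and endothelial markers 1 of 8, Emcn (0.76 ± 0.16). With single arrays left out, 1 fibroblast marker was called without wild-type replicate 2 or 3 or apoE-/- replicate 1 or 3, and 0 endothelial markers without wild-type replicate 1 or 3 or apoE-/- replicate 1 or 3. Of 4 tested lymphocyte markers none was called by limma, nor at an unadjusted p under 0.05, and the smallest p was that of Cd8a (-0.25 ± 0.16, adjusted p = 0.458). Skeletal muscle markers summed to 14327 units on wild-type replicate 3, 1072 units on the lowest wild-type array and 608 to 697 units in apoE-/- aorta. Acta1, Tnni2, Mylpf and Pvalb all read highest on wild-type replicate 3, Acta1 at 6440 units against 229.5 and 329.3 units on replicates 1 and 2. Ckm was called lower (-0.71 ± 0.13), a call that was lost when any one array other than apoE-/- replicate 2 was left out. Ckm read 432, 468 and 455 units on wild-type replicates 1 to 3, without a rise on replicate 3. Brown and white adipocyte markers summed to between 21735 and 44554 units in wild type and between 18138 and 27894 units in apoE-/- aorta, with none of 6 called by limma (1 at an unadjusted p under 0.05, Retn, -0.51 ± 0.20, adjusted p = 0.229). The part of these tissues in the cathepsin values was not tested.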

How the data were processed

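The 6 single-colour arrays were analysed. The authors' deposited values are intensities on a linear scale for 45101 probe sets. The software behind them is not given in the sources used here. The mean after trimming 2% at each end was 500.002 units on every array, so the authors had scaled the deposited intensities. That scaling was kept, and differences in total RNA per sample are not visible after it. The number of arrays limits the precision.

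Gene names came from GEO's platform annotation, updated through the GRCm38.p6 gene table. Intensities were taken as log2(intensity + 16), which understates changes of dim probe sets. The 64 control probe sets and the lower 40% of the rest by mean log2 value were left out, which kept 27023 probe sets and 13031 genes, each gene by its brightest probe set. The test was limma 3.58.1 (R 4.3.3) with lmFit and trended eBayes, two-sided, on genotype alone, once over genes and once over probe sets, and every adjusted p is from these fits unless an exact permutation is named. Intervals are 95% limma intervals. The fit was tested on simulated data.

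The members, the gene lists and the motifs were chosen with earlier results of these data known. Genes named are the members, Apoe, up to 4 called genes per list by size of change (or the one with the smallest p), the 3 genes nearest in pattern to each of the 3 members that changed most, and those said to be named later. Alternatives were other log offsets, scalings, filters and probe set summaries, array weights, no trend, a replicate block and leaving out each array.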

Additional observations from a re-analysis of the deposited data

How the results depend on the processing

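Every one of the 10 members had a positive log2 change under all 17 settings run. Because their groups did not overlap, leaving out arrays or changing the offset, filter, trend, weights or block could not reverse a sign. Offsets of 1 and 64, median centring and a 60% filter called 6 members. Leaving out each array in turn gave 3 to 9 called members by gene and 5 to 15 by probe set. It gave 145 to 545 genes higher and 10 to 156 lower (410 and 63 with all arrays), and 275 to 864 probe sets higher and 19 to 222 lower (660 and 76). Ranges of called list genes were 0 to 1 for other peptidases, inhibitors, endothelial, skeletal muscle and smooth muscle genes, 0 to 3 for sorting, 0 to 4 for regulators, 4 to 7 for substrates, 1 to 2 for osteoclast and fibroblast markers and 11 to 15 for macrophage markers. The Ctsk difference from the macrophage markers ranged from -0.24 to 0.05, with 0.054 without apoE-/- replicate 2, the one value above 0. The fewest genes were called without apoE-/- replicate 1 (145 higher, 10 lower) and the most without apoE-/- replicate 2 (545 and 156). The pairing of replicate numbers was checked by the correlation of deviations from group means, which was -0.10, -0.18 and -0.05 for numbers 1 to 3, so the numbers were not taken as pairs. With the replicate block, 5 members were called (Ctsd lost, adjusted p = 0.103), 18 genes and 32 probe sets were lower, 0 peptidase, inhibitor, sorting, endothelial or skeletal muscle genes were called, and 1 fibroblast gene. Without the intensity trend, 4 members (Ctsd and Ctsk lost, adjusted p = 0.0671 and 0.0673) and 5 of their probe sets were called, with 31 genes lower, 421 probe sets higher and 28 lower, 0 peptidase, inhibitor, sorting or endothelial genes and 1 fibroblast gene. Without a filter, 4 members were called (Ctsd 0.0534, Ctsk 0.0553), with 2 inhibitors, 0 peptidase or endothelial genes and 1 fibroblast gene. Quantile normalization called 8 members (adding Ctsb and Ctsz), 2 inhibitors and 0 peptidase or endothelial genes. Median centring called 41 genes lower, 0 peptidase genes and 1 fibroblast gene. Offsets of 1 and 64 each called 0 peptidase genes. Array weights called 8 members (adding Ctsa and Ctsz), with 121 genes and 119 probe sets lower. Summarising each gene by its median probe set called 7 members (adding Ctsb, 0.79, and Ctsz, 0.98, and losing Ctsc), 2 sorting genes and 0 peptidase or skeletal muscle genes. The causes were not tested, apart from fewer or more samples and genes entering a fit by construction. No detection calls were used, so which dim probe sets lay above background is not known.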

Other observations

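Of the 19 listed inhibitors, 9 lay under the intensity filter and were not tested in the main fit. They are named after their values were seen. Stfa3, a stefin of myeloid cells, read 22.1 ± 9.36 units in wild type and 118 ± 36.9 units in apoE-/- aorta (SD, n = 3). Cst7, or cystatin F, which acts on Ctsc in leukocytes, read 24.4 ± 2.57 and 62.2 ± 10.6 units, and Cst6 read 21.3 ± 6.86 and 99.9 ± 62.9 units. Means were lower in apoE-/- aorta for Cst9 (46.4 and 37.3 units), Cst10 (13.8 and 10.4) and Cst12 (73.2 and 69.5). Csta1 had means of 20.2 and 24.4 units, Stfa2l1 36.3 and 45.4, and Ahsg 81.0 and 251, the last with a wide spread (SD 70.2 and 336). Tfec, a relative of Tfeb in myeloid cells, read 42.7 ± 21.7 and 161 ± 122 units. These wild-type levels are not shown to be above background, and no fold change is given.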
